A study of Mus musculus with 12 samples.

Results

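A set of 47 genes for entry into the endoplasmic reticulum (ER) and for transport between ER and Golgi was examined in plasma cells of 2 genotypes. The genes were taken by symbol from the probe annotation, and each was represented by the probe set that names it alone and has the highest mean over the 12 arrays. Of the 47 genes, 45 had such a probe set and all 45 passed the filter on low values, among 14993 genes that passed it in all. Sec61g, the small gamma subunit of the translocation channel, lay only on probe sets that name several genes, and Kdelr2 was matched to no probe set, so neither has a value here. The subgroups were SRP and Sec61 (14 of 15 measured), signal peptidase (5 of 5), COPII (11 of 11), COPI (8 of 8), and KDEL and cargo receptors (7 of 8).

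The donors were wild-type (Zbtb32 +/+) or Zbtb32-/- mice carrying CD45.2 and immune to NP-CGG, the hapten NP on a carrier protein. Their splenocytes, for which the labels name no purification before transfer, went into CD45.1 recipients that were challenged with NP-CGG, and after 7 days NP-binding plasma cells of donor type (CD45.2+ CD45.1- CD138+, without B220, Ly6g or CD11b) were sorted from bone marrow. Zbtb32 encodes a BTB zinc finger transcription factor, and the comparison asks how its loss bears on these cells' transcripts. Each genotype has 6 arrays, called biological replicates by the series text. Age, sex, strain background, the form of the Zbtb32 deletion and the number of animals behind an array are not stated by the labels. The p-values therefore measure the spread between these arrays only.

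A plasma cell secretes antibody in large amounts, and every heavy and light chain enters the ER through the machinery examined here. The signal recognition particle (SRP) binds a signal peptide as it leaves the ribosome and docks at its receptor, the Sec61 channel lets the chain through, and signal peptidase cuts the signal off. COPII coats then form vesicles that carry folded cargo to the Golgi, COPI coats carry material back, KDEL receptors return escaped ER chaperones, and cargo receptors such as Lman1 select what leaves. Many of these genes are known targets of Xbp1, the transcription factor of the unfolded protein response that plasma cells depend on.

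The promoters of the 47 genes were searched for motifs of the unfolded protein response. Whether such motifs bear on how the genes vary between arrays was not tested. RefSeq promoter windows of 300 bases (250 before to 50 after an annotated start, GRCm38.p6) were found for 37 of the 47 genes. The element TGACGTGG, known as UPRE and bound by Xbp1 and Atf6, occurred on either strand in windows of 6 of these 37 genes (16.2%), against 123 of 11852 genes tested with a window (1.04%) and 193 of 27025 genes of the whole promoter table (0.714%). The 6 are shown because they are the genes among the 37 that hold it, with capitals marking TGACGTGG or its complement CCACGTCA.
Arf1: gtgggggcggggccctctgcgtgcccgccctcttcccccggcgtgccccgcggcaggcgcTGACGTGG
Copb1: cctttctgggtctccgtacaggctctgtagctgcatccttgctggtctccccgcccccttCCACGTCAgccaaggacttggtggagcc
Copb2: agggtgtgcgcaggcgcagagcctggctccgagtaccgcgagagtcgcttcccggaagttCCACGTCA
Kdelr3: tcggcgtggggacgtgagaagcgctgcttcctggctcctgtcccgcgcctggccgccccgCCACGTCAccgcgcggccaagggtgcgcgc
Sec23a: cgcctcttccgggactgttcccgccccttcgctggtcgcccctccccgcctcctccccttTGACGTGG
Sec24d: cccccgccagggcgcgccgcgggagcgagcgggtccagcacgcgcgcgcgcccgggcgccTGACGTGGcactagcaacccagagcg
They lie at chr11:59228239-59228306 (minus strand), chr7:114254681-114254768 (minus), chr9:98563664-98563731 (plus), chr15:79516318-79516407 (plus), chr12:59012004-59012071 (minus) and chr3:123267410-123267495 (plus), in the order of the names and read 5′ to 3′ along the gene. The motif begins 28, 7, 30 and 26 bases before a RefSeq start in Copb1, Copb2, Kdelr3 and Sec24d, and 21 and 6 bases after it in Arf1 and Sec23a. Arf1 has a second RefSeq start, 105 bases further into the gene, and the same motif begins 84 bases before that start. The start used for Sec24d lies 2695 bases inside the gene. By subgroup, 3 of the 7 COPI genes with a window held the element, 2 of 11 COPII genes, 1 of 5 KDEL and cargo receptor genes, and 0 of 11 SRP and Sec61 and 0 of 3 signal peptidase genes. The ACGTG core, which TGACGTGG contains, occurred in 25 of 37 genes (67.6%) against 27.2% of genes tested with a window. CCACG, which is contained in the complement of TGACGTGG, also occurred in 25 of 37 (67.6%), against 48.3%. The longer element ERSE, in which CCAAT and CCACG stand at a fixed distance, was in 0 of 37 genes and in 0.152% of genes tested. The windows of the set held a median of 20 CG dinucleotides and those of genes tested 18. These matches describe letters in a window and not binding.

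The values are log2 RMA values, in which background was removed, the arrays' distributions were made alike and the probes of a set were summarised. A difference is Zbtb32-/- minus wild type on this log2 scale. The median over all probe sets lay between 6.28 and 6.43 on each array, and pairs of arrays correlated at 0.914 to 0.984 across probe sets. All 12 plasma cell markers of a marker list were measured above the filter, and the list averaged 10.69 ± 0.28 in wild-type cells and 10.76 ± 0.22 in cells without Zbtb32 (SD, n = 6 arrays each). Among them Jchain averaged 13.65 and Xbp1 13.02, and the lowest were Il6ra at 8.37 and Cd28 at 8.39. Transcripts of other marrow cells were present as well. The array means of 14 neutrophil markers ran from 7.87 to 10.75 in wild type and from 8.83 to 12.05 in Zbtb32-/-, from Ly6g at 7.73 and Cebpe at 8.06 to Ngp at 12.25 and S100a9 at 12.55 over the 12 arrays, although the sort excluded Ly6g and CD11b. In such bulk samples fewer cells of a type and less RNA per cell cannot be told apart.

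No gene for ER entry or coat transport differed between the genotypes after adjustment over all genes, while nearly every one of them had a small positive difference. With limma, 0 of the 45 passed a Benjamini-Hochberg adjusted p of 0.05 (smallest 0.933), as did 0 of 14993 genes in all (0.0%). At an unadjusted p under 0.05 there was 1 of the 45, Sec62, which was higher in Zbtb32-/-, against 4.28% of all genes tested in either direction and 2.83% in this direction. Of the 45 genes, 44 had a positive difference, against 52.9% of all genes tested, and their median was 0.18 (1.15-fold for the mean of 0.20, SE 0.15) against 0.01 over all genes. Positive differences were common among genes of high level: 38 of the 45 lay in the top 10% by mean level, where 84.6% of 1500 genes were positive with a median of 0.13, and of those 38 genes 37 were positive with a median of 0.17. In 0 of the 45 genes did the genotypes lie apart without overlap, against 0.153% of all genes. The 95% interval lay within a 2-fold change in either direction for 43 of the 45 genes (95.3% of all genes) and within a 1.5-fold change for 26 (73.4%).

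**Figure D1:**
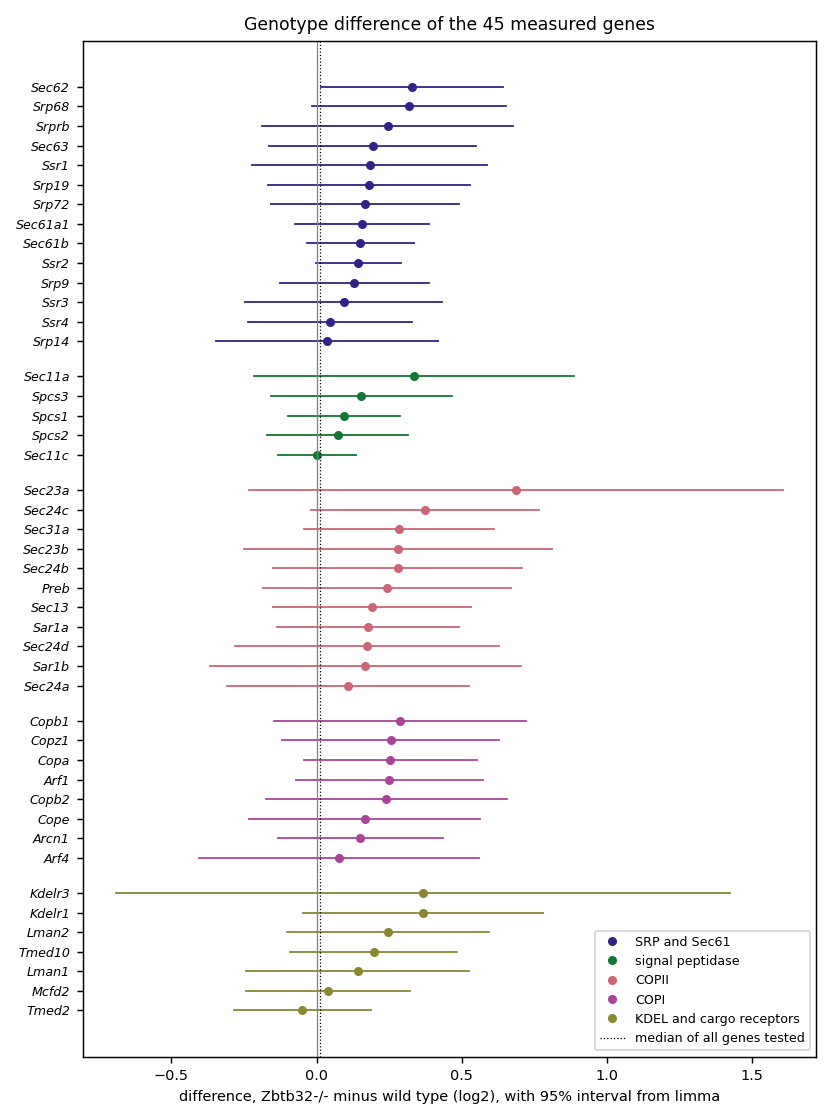
Difference between genotypes (log2, Zbtb32-/- minus wild type, n = 6 each) of the 45 measured genes by subgroup, with 95% intervals from limma. A total of 44 points lie right of 0 and 1, Tmed2, lies left of it, and Sec62 has the interval that starts above 0, at 0.02.

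The subgroup means gave the same picture on a small scale. SRP and Sec61 averaged 10.77 ± 0.28 in wild-type and 10.94 ± 0.15 in Zbtb32-/- cells (SD, n = 6 arrays each), a difference of 0.17 (SE 0.13). Signal peptidase differed by 0.13 (SE 0.10), COPII by 0.27 (SE 0.19), COPI by 0.21 (SE 0.18), and KDEL and cargo receptors by 0.19 (SE 0.19). All genes of the first 4 subgroups had positive differences, 14, 5, 11 and 8 in number, and 6 of the 7 KDEL and cargo receptor genes. In each subgroup the 2 genotypes overlapped, and each difference was below the SD of the wild-type arrays. Leaving out wild-type replicate 4, the lowest array of every subgroup, brought SRP and Sec61 to 0.09, COPII to 0.16, COPI to 0.10, KDEL and cargo receptors to 0.08 and the median of the 45 genes to 0.09. Of the 45 single differences, 33 became smaller by more than 1.5 times or turned sign without this array. Signal peptidase was 0.10 without it and 0.07 when wild-type replicates 2 and 6 were left out. Other removals raised the differences. COPII rose to 0.37, COPI to 0.28 and KDEL and cargo receptors to 0.28 without wild-type replicate 1. SRP and Sec61 rose to 0.23 without wild-type replicate 3, and signal peptidase to 0.19 without Zbtb32-/- replicate 6. Without these arrays in turn, 11, 11 and 16 single differences became larger by more than 1.5 times. In each case 1 became smaller by as much or turned sign. With quantile normalization run again the median of the 45 genes was 0.11, and the mean difference was 0.11 for SRP and Sec61, 0.083 for signal peptidase and 0.14 for COPI.

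**Figure D2:**
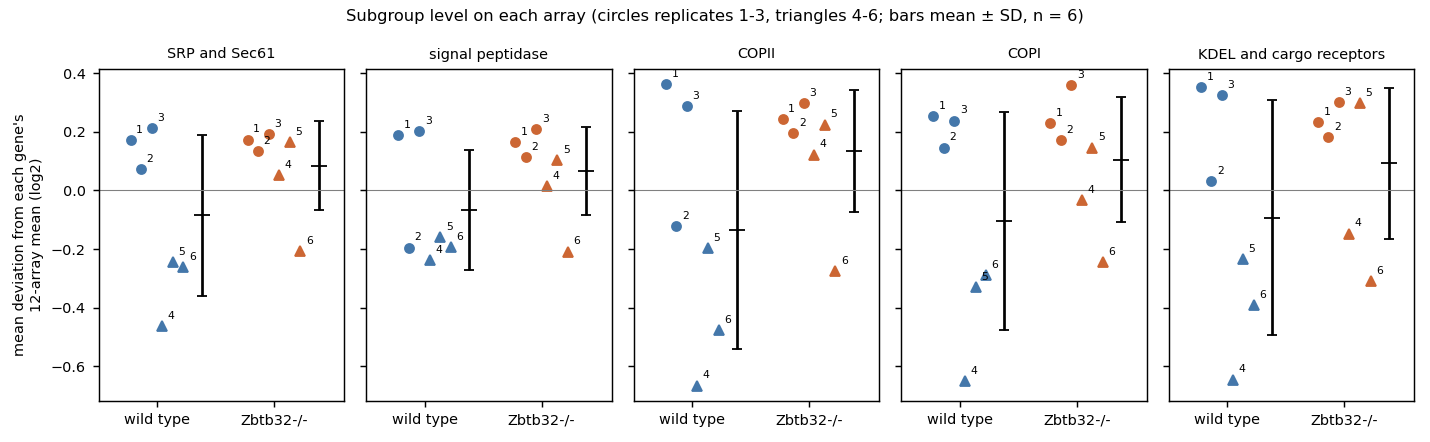
Mean deviation of each subgroup's genes from their own 12-array means (log2) on every array, by genotype, with numbers giving the replicate, and bars the mean ± SD (n = 6). Wild-type replicates 4, 5 and 6 and Zbtb32-/- replicate 6 lie below 0 in all 5 panels, with wild-type replicate 4 lowest at -0.24 to -0.67.

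Among the SRP and Sec61 genes, Sec62, which helps the channel take up chains after their synthesis, had the smallest p. Its wild-type values ran from 8.56 over a median of 8.96 to 9.26 and its Zbtb32-/- values from 9.14 over 9.29 to 9.46. The wild-type mean lay below all 6 Zbtb32-/- arrays and 3 wild-type arrays lay below the lowest Zbtb32-/- array, but the groups overlapped. The difference was 0.33 (SE 0.15, 1.26-fold, limma adjusted p = 0.933). Srp68, a protein of the SRP that binds its RNA with Srp72, ran from 9.17 over 9.83 to 10.07 in wild type and from 9.91 over 9.99 to 10.41 in Zbtb32-/-. Its difference was 0.32 (SE 0.16), and 4 wild-type arrays lay below all Zbtb32-/- arrays. Srp72 itself differed by 0.17 (SE 0.15).

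The channel subunits differed less. Sec61a1, the pore, ran from 11.78 over 12.08 to 12.45 in wild type and from 12.08 over 12.25 to 12.39 in Zbtb32-/-, a difference of 0.16 (SE 0.11). Sec61b, a small subunit beside the pore, ran from 12.50 over 12.62 to 12.97 and from 12.59 over 12.89 to 12.95, a difference of 0.15 (SE 0.09). In both genes the wild-type range held all Zbtb32-/- values. The other 2 probe sets of Sec61b gave 0.10 and 0.02. Sec63, which draws the chaperone of the ER lumen to the channel, differed by 0.19 (SE 0.17).

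The Ssr genes encode the translocon-associated protein complex, which assists some signal peptides. Ssr2 ran from 12.92 over 13.05 to 13.29 in wild type and from 13.06 over 13.27 to 13.36 in Zbtb32-/-, a difference of 0.14 (SE 0.07). All 6 Zbtb32-/- arrays lay above the wild-type median. Ssr1, Ssr3 and Ssr4 differed by 0.18, 0.09 and 0.05 (SE 0.19, 0.16 and 0.13). Among the remaining SRP genes, Srp14 and Srp9, which form the part of the particle that slows translation, differed by 0.04 (SE 0.18) and 0.13 (SE 0.12). Srp14 ran from 9.31 over 9.86 to 10.28 and from 9.52 over 9.90 to 10.32, so the genotypes covered the same range. Srp19, which helps assemble the particle, differed by 0.18 (SE 0.16) and Srprb, the membrane subunit of the SRP receptor, by 0.25 (SE 0.20). Without wild-type replicate 4, Ssr1 stood at 0.028, Srprb at 0.12, Srp72 at 0.047, Srp19 at 0.10, Sec63 at 0.11, Sec61a1 at 0.092 and Srp68 at 0.21.

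The 2 catalytic subunits of signal peptidase differed in their spread. Sec11c, a catalytic subunit, had the smallest spread of the 45 genes in wild type: it ran from 12.25 over 12.44 to 12.54 in wild type and from 12.27 over 12.46 to 12.50 in Zbtb32-/-. The difference was 0.002 (SE 0.06), and its 95% interval of -0.13 to 0.14 lay within a 1.5-fold change either way. Its paralog Sec11a, the other catalytic subunit, ran from 8.90 over 10.31 to 10.79 and from 10.14 over 10.53 to 10.64. The wild-type low was replicate 2 alone, and the difference of 0.34 (SE 0.26) was 0.09 without that array and 0.47 without wild-type replicate 3. The non-catalytic subunits lay between them: Spcs3 ran from 11.04 over 11.43 to 11.92 and from 11.34 over 11.69 to 11.86, a difference of 0.15 (SE 0.15). Spcs1 ran from 12.71 over 12.97 to 13.20 and from 12.81 over 13.07 to 13.19, a difference of 0.09 (SE 0.09), and Spcs2 differed by 0.07 (SE 0.11). Without wild-type replicate 4 these 3 stood at 0.068, 0.059 and 0.018.

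COPII had a mean difference of 0.27, to which Sec23a adds most, and a median of 0.24, beside a median of 0.25 in COPI. Sec24c, one of 4 Sec24 paralogs that bind cargo, ran from 8.26 over 9.24 to 9.49 in wild type and from 9.36 over 9.39 to 9.66 in Zbtb32-/-. All 6 Zbtb32-/- arrays lay above the wild-type median and 5 wild-type arrays lay below every Zbtb32-/- array, yet the difference of 0.37 (SE 0.18, adjusted p = 0.933) did not pass, and it was 0.21 without wild-type replicate 4. The paralogs Sec24b, Sec24d and Sec24a differed by 0.28, 0.17 and 0.11 (SE 0.20, 0.21 and 0.19). Sec24b was lowest in wild-type replicate 2 (6.99) and differed by 0.10 without it, and by 0.36 without wild-type replicate 1. Sec24d, whose promoter is shown above, ran from 8.69 over 9.49 to 9.80 and from 8.99 over 9.57 to 9.98.

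The coat's other parts followed. Sec31a, which with Sec13 forms the outer cage, ran from 9.91 over 10.35 to 10.86 in wild type and from 10.41 over 10.65 to 10.83 in Zbtb32-/-, a difference of 0.28 (SE 0.15). Sec13 ran from 10.07 over 10.55 to 10.94 and from 10.26 over 10.81 to 10.97, a difference of 0.19 (SE 0.16). In both, wild-type replicate 4 was the lowest array, and the highest wild-type and Zbtb32-/- arrays were close.

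Sec23a and Sec23b are paralogs that stimulate GTP hydrolysis by the GTPase Sar1 and so turn it off. Sec23a ran from 5.23 over 6.54 to 8.02 in wild type and from 6.50 over 7.50 to 7.80 in Zbtb32-/-, and its difference of 0.69 (SE 0.43) was the largest of the 45 genes. Wild-type replicates 2, 4 and 6 (6.07, 6.16 and 5.23) lay below all Zbtb32-/- arrays, and wild-type replicates 1 and 3 (7.95 and 8.02) lay above them all. The value of 5.23 is below 5.49, the level of the filter on means, and RMA compresses low values. The Sec23a difference was 0.39 on leaving out wild-type replicate 6 and 0.15 on leaving out replicate 2 as well. It was 0.93 and 0.95 on leaving out wild-type replicates 1 and 3 in turn. Sec23b ran from 8.38 over 9.47 to 10.10 and from 9.32 over 9.74 to 10.02, a difference of 0.28 (SE 0.25) that was 0.066 without wild-type replicate 4. Of the GTPases, Sar1b ran from 9.86 over 10.95 to 11.41 and from 10.49 over 11.06 to 11.23, a difference of 0.17 (SE 0.25), and Sar1a differed by 0.18 (SE 0.15). Preb, the exchange factor that loads Sar1 with GTP, differed by 0.24 (SE 0.20). Without wild-type replicate 4, Sar1b stood at -0.023, Preb at 0.13, Sec13 at 0.096 and Sec24d at 0.035.

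COPI genes had differences between 0.08 and 0.29. Copa, the alpha subunit of the coat, ran from 9.61 over 10.22 to 10.45 in wild type and from 10.28 over 10.34 to 10.65 in Zbtb32-/-, a difference of 0.25 (SE 0.14). All 6 Zbtb32-/- arrays lay above the wild-type median and 4 wild-type arrays lay below all of them. Arf1, the GTPase that brings the coat to the membrane, ran from 11.20 over 11.83 to 12.10 and from 11.74 over 12.06 to 12.29, a difference of 0.25 (SE 0.15), and its other probe set gave 0.26. Copz1, a small coat subunit, ran from 9.22 over 9.83 to 10.13 and from 9.66 over 10.07 to 10.28, a difference of 0.26 (SE 0.17). The coat subunits Copb1, Copb2, Cope and Arcn1 differed by 0.29, 0.24, 0.17 and 0.15 (SE 0.20, 0.19, 0.19 and 0.13). Arf4, a relative of Arf1, differed by 0.08 (SE 0.22). Without wild-type replicate 4, Arf4 stood at -0.071, Copa at 0.14, Arf1 at 0.14, Copz1 at 0.15, Copb2 at 0.12, Cope at 0.054, Copb1 at 0.18 and Arcn1 at 0.095.

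Among the receptors, Kdelr1, which binds the KDEL tail of ER chaperones, ran from 9.72 over 10.53 to 10.95 in wild type and from 10.47 over 10.88 to 10.95 in Zbtb32-/-. The difference was 0.37 (SE 0.19), and it was 0.22 without wild-type replicate 4. Kdelr3 had the widest spread of the 45 genes, with wild-type values of 7.76, 7.10, 8.21, 5.25, 6.53 and 5.50 in replicates 1 to 6 and Zbtb32-/- values of 7.36, 7.33, 7.81, 5.94, 7.67 and 6.45. The lowest Kdelr3 values were thus in replicates 4 and 6 of both genotypes. Among them the 5.25 of wild-type replicate 4 is below 5.49, the level of the filter on means. Its difference of 0.37 (SE 0.49, 95% interval -0.69 to 1.43) was 0.07 and 0.12 on leaving out wild-type replicates 4 and 6 in turn, 0.67 and 0.57 on leaving out wild-type replicates 3 and 1, and 0.22 and 0.60 on leaving out Zbtb32-/- replicates 3 and 4.

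The cargo receptors had smaller differences. Lman1, a lectin that takes glycoproteins into COPII vesicles, ran from 10.71 over 11.21 to 11.61 in wild type and from 10.75 over 11.46 to 11.64 in Zbtb32-/-, a difference of 0.14 (SE 0.18). Mcfd2, its partner, ran from 7.09 over 7.29 to 7.73 and from 7.13 over 7.37 to 7.62, a difference of 0.04 (SE 0.13). For this pair the 2 genotypes covered nearly the same range. Lman2, a related lectin, ran from 10.43 over 11.02 to 11.42 and from 10.87 over 11.33 to 11.51, a difference of 0.25 (SE 0.16). Tmed10 and Tmed2 belong to the p24 family of proteins that shuttle between ER and Golgi. Tmed10 ran from 11.62 over 12.16 to 12.45 and from 12.09 over 12.34 to 12.58, a difference of 0.20 (SE 0.13), while its other probe set gave 0.05. Tmed2 was the gene with a negative difference, -0.05 (SE 0.11), and its other 2 probe sets gave -0.07 and -0.06. Without wild-type replicate 4, Lman1 stood at 0.043, Lman2 at 0.13 and Tmed10 at 0.095.

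**Figure D3:**
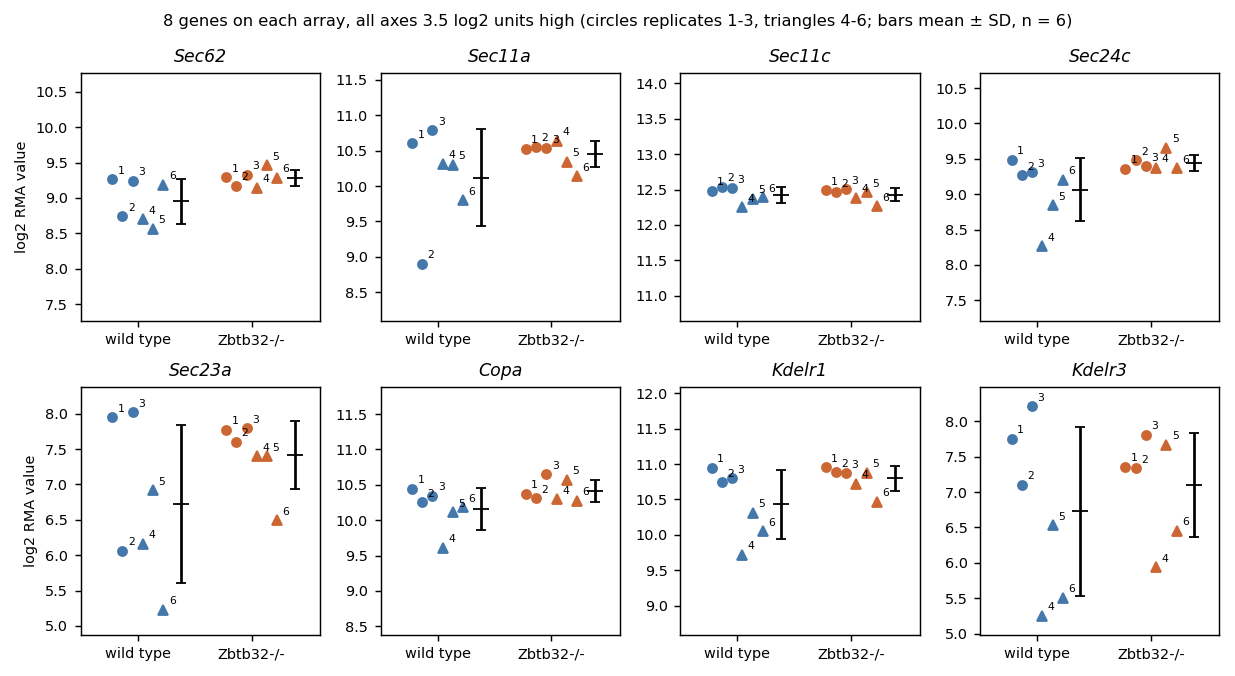
Values of 8 genes (log2 RMA) on each array by genotype, with replicate numbers, on axes of equal height, and bars the mean ± SD (n = 6). Sec11c lies between 12.25 and 12.54 on all arrays, Kdelr3 between 5.25 and 8.21, and the lowest Sec11a value, 8.90, is wild-type replicate 2.

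The genes moved together from array to array more than they differed by genotype. In wild-type replicates 4, 5 and 6, 44, 45 and 44 of the 45 genes lay below their own median over the 12 arrays, and in Zbtb32-/- replicate 6 it was 42. Over all genes tested these shares were 53.3%, 62.7%, 54.7% and 56.4%. In replicates 1 and 3 the number was 3 and 3 in wild type and 5 and 6 in Zbtb32-/-. Wild-type replicate 4 held the lowest value of 31 of the 45 genes, against 13.09% of all genes. General plasma cell markers shared these extremes. Their list mean and the mean of the 45 genes were both lowest in wild-type replicate 4 and, among Zbtb32-/- arrays, in replicate 6. Both were highest in wild-type replicate 1 and Zbtb32-/- replicate 3 within their genotypes. Wild-type replicate 2 was split: 24 of 45 genes lay below their median there. Signal peptidase stood at -0.20 and COPI at 0.15 from the 12-array means, with 2 of 5 and 3 of 8 genes below their median. The -0.20 came mostly from Sec11a, at 8.90 on this array against a 12-array mean of 10.29. Zbtb32-/- replicate 4 was split too, with 7 of 8 COPI and 6 of 7 receptor genes below their median but 4 of 11 COPII genes.

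The arrays with low values had high levels of other cells' markers, with exceptions. The mean over 4 lists (neutrophils, monocytes and macrophages, erythroid cells, T and NK cells) was 8.14, 8.13 and 8.07 in wild-type replicates 4, 5 and 6 and 8.62 in Zbtb32-/- replicate 6. It was also 8.11 in Zbtb32-/- replicate 2 and 8.01 in wild-type replicate 3, where most of the genes lay above their median, and it was lowest, at 6.90, in wild-type replicate 2. By genotype, 14 of 14 neutrophil markers were measured with a mean difference of 0.34, 10 of 12 monocyte and macrophage markers with -0.07, 10 of 14 erythroid markers with 0.27 and 13 of 14 T and NK cell markers (11 above the filter) with -0.15, and 0 passed. The monocyte list ran from 7.41 to 8.82 in wild type and 7.54 to 8.67 in Zbtb32-/-, the erythroid list from 6.16 to 8.01 and 6.79 to 7.56, and the T and NK cell list from 6.16 to 7.19 and 6.21 to 6.49. The highest markers were Ctss at 11.01 and Cybb at 10.16 in the monocyte list and Car1 at 9.18 and Slc4a1 at 8.20 in the erythroid list. In the T and NK cell list they were Cd2 at 7.74 and Nkg7 at 7.25. Of the lowest markers of these lists, Ccr2 averaged 5.58, Rhag 5.96, Ncr1 4.98 and Klrb1c 4.47, beside a filter at 5.49. Of the B cell markers 11 of 12 were measured, and their mean ran from 6.87 to 8.40 in wild type and from 7.22 to 7.90 in Zbtb32-/-. In this list Pax5 averaged 9.38 and Ebf1 9.20, and the lowest were Cr2 at 6.29 and Cd83 at 5.79. The difference of this list was -0.30, with 2 of 11 markers positive and 0 past the threshold. With the 4-list mean as a covariate the median of the 45 genes was 0.22, 44 were positive and 0 passed. The part of these cells' RNA in the differences was not tested further.

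**Figure D4:**
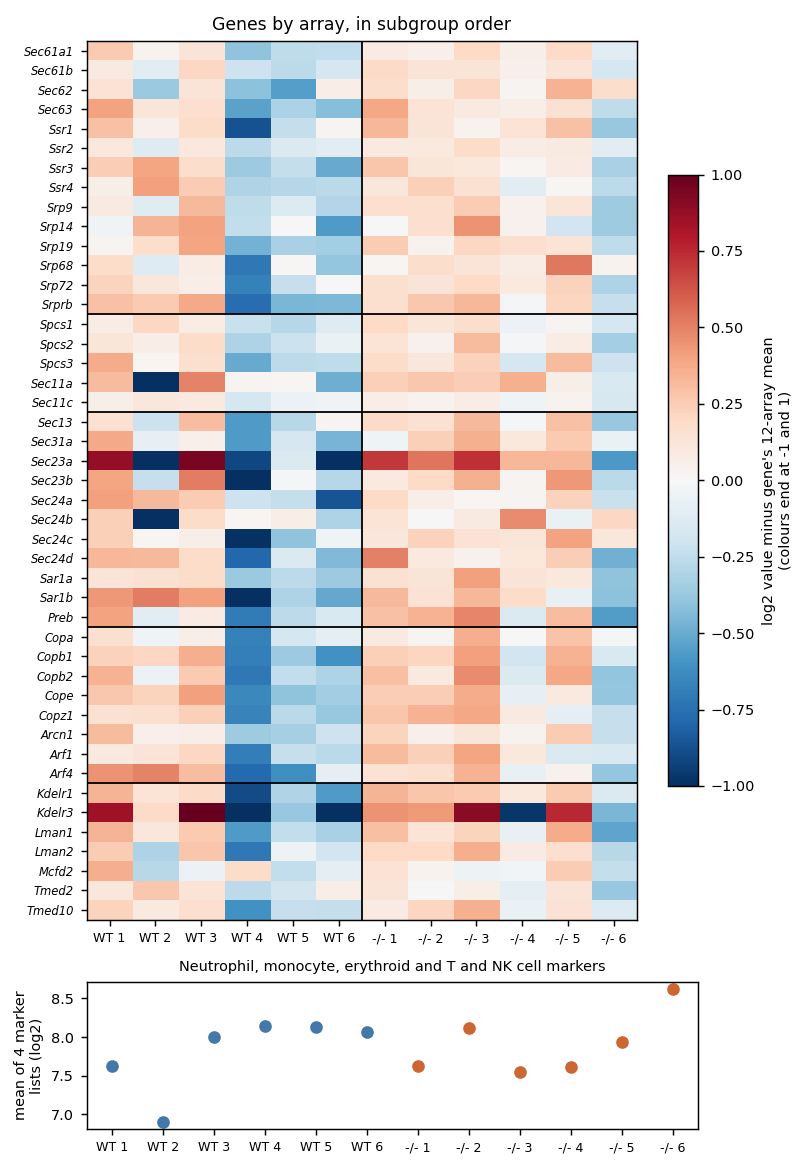
Each gene's value minus its 12-array mean (log2 colour scale ending at -1 and 1) on the 12 arrays, rows in subgroup order, above the mean of 4 lists of other cells' markers (log2). The columns of wild-type replicates 4, 5 and 6 and Zbtb32-/- replicate 6 are mostly blue, and their marker means are 8.14, 8.13, 8.07 and 8.62.

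The spread was larger in wild-type cells. In 43 of the 45 genes the SD over 6 wild-type arrays exceeded that over 6 Zbtb32-/- arrays, Spcs2 and Preb being the exceptions, against 69.9% of all genes tested. The median SD of the 45 genes was 0.36 in wild type and 0.21 in Zbtb32-/-, and over all genes it was 0.26 and 0.20. Other genes of the same machinery shared this: in 63 of 73 the SD was larger in wild type, with median SDs of 0.39 and 0.27. Genes with the widest wild-type spread were Kdelr3 (1.19), Sec23a (1.11) and Sec11a (0.68), and those with the smallest were Sec11c (0.11), Ssr2 (0.15) and Sec61b (0.19).

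The genotype difference was mostly that of replicates 4 to 6. Replicates 1 to 3 and 4 to 6 were looked at apart because an earlier look at these data found them unlike. The labels name no batch. Over replicates 1 to 3, 25 of the 45 genes had a positive difference and their mean difference was 0.04, and over replicates 4 to 6 all 45 were positive with a mean of 0.36. In the same order SRP and Sec61 gave 0.01 and 0.33, signal peptidase 0.10 and 0.17, COPII 0.07 and 0.47, COPI 0.04 and 0.38, and KDEL and cargo receptors 0.003 and 0.37. The 0.10 of signal peptidase came mostly from Sec11a. Over replicates 1 to 3 Spcs1, Spcs2, Spcs3 and Sec11c gave 0.05, 0.04, -0.01 and -0.03. Kdelr3 differed by -0.19 and 0.92, Sec23a by 0.38 and 0.99, Kdelr1 by 0.07 and 0.66 and Sec24c by 0.06 and 0.69. Sec11a, Sec24b and Preb went the other way or were even, with 0.44 and 0.23, 0.28 and 0.28, and 0.25 and 0.24.

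The test of the difference between the sets did not pass for any of the 45 genes. In limma with genotype, replicate set and their product, 0 of 45 genes passed for the product (smallest adjusted p = 0.998), as did 0 of 14993 (0.0%). At an unadjusted p under 0.05 it was 7 of 45, namely Sec61a1, Ssr3, Srprb, Sec24a, Sar1b, Copb1 and Kdelr1, against 3.86% of all genes. The product was positive for 42 of the 45, against 52.5% of all genes. Each combination of genotype and set has 3 arrays, which limits the precision of this product. Between the sets, 43 of the 45 genes were lower in replicates 4 to 6 of the wild type, by a mean of -0.55, and 41 were lower in those of Zbtb32-/-, by a mean of -0.23. Over all genes these means were -0.07 and -0.05.

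**Figure D5:**
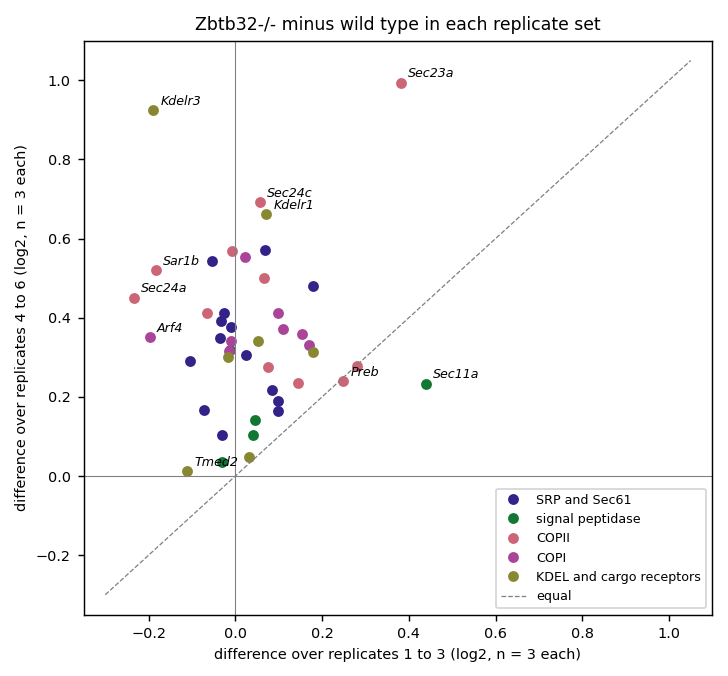
Difference between genotypes (log2, Zbtb32-/- minus wild type) of the 45 genes over replicates 1 to 3 (horizontal) and over replicates 4 to 6 (vertical), 3 arrays a genotype in each. All 45 points lie above 0 on the vertical axis, 25 lie right of 0 on the horizontal axis, and 42 lie above the dashed line of equal differences.

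Genes of the same machinery outside the set were also mostly positive, and none passed. Of 81 listed genes, 73 could be tested: 62 had a positive difference, against 52.9% of all genes tested, and 11 a negative one, their median was 0.17, and 0 passed (limma, smallest adjusted p = 0.933), with 9 at an unadjusted p under 0.05, all positive, against 2.83% of all genes in this direction. For other genes of ER translocation and insertion, 16 of 19 were positive, among them Sgta, a chaperone of tail-anchored proteins, at 0.42 (SE 0.15) and Emc2, a subunit of the ER membrane complex, at 0.43 (SE 0.16). For other genes of COPII and ER exit it was 20 of 22, with Trappc1 and Trappc2, subunits of the TRAPP tethering complex, at 0.57 (SE 0.19) and 0.62 (SE 0.25). Unlike most genes of the set, both gave like differences in replicates 1 to 3 (0.60 and 0.59) and 4 to 6 (0.54 and 0.66). For other genes of COPI and retrograde transport it was 13 of 16, with Bnip1, a SNARE of the ER, at 0.26 (SE 0.10) and Copg2, a gamma subunit of the coat, at 0.69 (SE 0.29). For other cargo receptors it was 13 of 16, with Tmed4 at 0.51 (SE 0.23) and Ergic1 at 0.24 (SE 0.13).

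The 6 genes with TGACGTGG in a promoter window had differences of 0.17 to 0.69 with a median of 0.27, and the other 30 measured genes with a window ranged from 0.04 to 0.37 with a median of 0.19. The ranges overlapped, and the highest of the 6 was Sec23a, whose value rests on few arrays as given above.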

How the data were processed

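Plasma cells sorted from bone marrow of 12 samples, 6 of each genotype, were measured on Affymetrix mouse gene arrays. The authors deposited log2 values, 1 per probe set and array. RMA and Affymetrix Expression Console are the tools named in the submitters' processing notes; versions, and whether all arrays were normalized together, are not given in the sources used here. Per the labels' protocols, RNA was prepared with a WT Pico kit. RMA compresses low values and hides differences in total RNA. Scanner files were not used here. Of 35556 probe sets, 21789 name 1 gene, 1621 several and 12146 none, and 19938 genes had a probe set of their own. The filter removed genes whose mean did not exceed 5.49, the 25th percentile over probe sets of a single gene. Probe sets of different genes differ in affinity, so differences between genotypes and arrays were taken within a gene. Where genes were ranked by mean level or set beside the filter, the order holds only roughly.

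All 14993 genes were fitted with limma 3.58.1 in R 4.3.3 (lmFit, eBayes with trend, genotype as the only term) and adjusted by the Benjamini-Hochberg method at 0.05. Subgroup values are means over genes per array, given with no test. The genes and lists were chosen with earlier results of these data known. Values per array were given for the 3 genes of each subgroup with the smallest p and for 12 genes set by role, of which Kdelr2 had no value. Further genes (Kdelr3, Tmed2 and those of the replicate sets) were singled out after their values were seen. Of other genes of the machinery, the 2 with the smallest p in each list were named, and of the marker lists genes with the highest and lowest means. The fit was tested on simulated data first. At an adjusted p of 0.05 it called 26.5% of simulated genotype differences of 0.5, 71.2% of those of 1 and 97% of those of 2. For the product of genotype and replicate set it called 2.9%, 21.2% and 75.8%. Smaller differences, like most of those given here, were not simulated, so a count of 0 passed does not show that they are absent. Alternatives were renewed quantile normalization, median centring, 2 other filters, the mean of probe sets, 2 other variance models, weights per array, a block for the replicate number, the replicate sets as a term and apart, a covariate for other cells and leaving out arrays. The protein identity of paralogs was not analysed here. Python 3.11.15, pandas 2.3.3 and matplotlib 3.10.9 joined tables and drew plots.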

Additional observations from a re-analysis of the deposited data

Results flagged for a closer look

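In 8 of 102 groups of 6 arrays checked (45 genes, the 5 subgroup means and the mean of all 45, in each genotype), 1 array stood apart from the rest, by a gap to its nearest neighbour above 0.625 of the group's range. Chance flags about 1 in 20. All 8 were among Zbtb32-/- arrays. Replicate 6 was the low one for Sec61b (12.59, next 12.82), Ssr2 (13.06, next 13.25), Srp9 (11.69, next 12.09), Srp72 (10.22, next 10.63), Sec23a (6.50, next 7.40), the SRP and Sec61 mean (10.65, next 10.91) and the COPII mean (9.46, next 9.86). This array also had the highest mean of other cells' markers, 8.62. Replicate 5 was the high one for Srp68 (10.41, next 10.06). Without Zbtb32-/- replicate 6 all 45 differences were positive, with a median of 0.27 and 0 past the adjusted threshold.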

How the results depend on the processing

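Across 26 alternatives, 0 of the 45 genes and 0 of the other genes of the machinery passed with limma, and over all genes the count was 0 in every alternative but replicates 4 to 6 alone, where it was 1 (Rny1, a Y RNA, named after its value was seen, at -1.52 with a limma adjusted p of 0.0253, and at -0.68 over all arrays). The number of positive genes was 25 over replicates 1 to 3 alone and 39 to 45 on leaving out single arrays. On leaving out single arrays the median of the 45 genes was 0.09 to 0.27, and the number at an unadjusted p under 0.05 was 0 to 9, while over all genes it was 458 to 1416 (1005 without wild-type replicate 1, where the 45 genes gave 9, and 1416 without wild-type replicate 3, where they gave 7). The replicate numbers did not pair the arrays throughout (correlations of same-numbered arrays 0.019 to 0.468). Wild-type replicates 1 and 6 correlated best with the Zbtb32-/- array of the same number. Wild-type replicates 2, 3, 4 and 5 correlated best with Zbtb32-/- replicates 3, 2, 6 and 6. With the replicate block 0 of the 45 and 0 of all genes passed, and 8 of the 45 and 914 of all genes had an unadjusted p under 0.05, against 1 and 642. Array weights turned the sign of Tmed2 to 0.012. Renewed quantile normalization turned Srp14 (-0.051), Sec11c (-0.035) and the Arf4 difference (-0.0022). Over replicates 1 to 3 alone the sign turned for Sec61a1 (-0.034), Sec63 (-0.026), Ssr1 (-0.0097), Ssr3 (-0.10), Ssr4 (-0.072), Srp14 (-0.031), Srp19 (-0.033), Srprb (-0.054), Spcs3 (-0.012), Sec11c (-0.030), Sec23b (-0.0083), Sec24a (-0.23), Sec24d (-0.064), Sar1b (-0.18), Cope (-0.011), Arcn1 (-0.014), Arf4 (-0.20), Kdelr3 (-0.19) and Lman1 (-0.017), and over replicates 4 to 6 alone for Tmed2 (0.011). Without wild-type replicates 2 and 6 it turned for Srp14 (-0.010), Sec11a (-0.048), Mcfd2 (-0.040) and Tmed2 (0.023). The cause was not tested. On leaving out single arrays the sign turned for these genes, with ranges of -0.0093 to 0.13 for Ssr4, -0.072 to 0.12 for Srp14, -0.033 to 0.035 for Sec11c, -0.054 to 0.20 for Sec24a, -0.023 to 0.29 for Sar1b, -0.071 to 0.18 for Arf4, -0.010 to 0.12 for Mcfd2 and -0.11 to 0.021 for Tmed2. The number of arrays and the compression of low values limit what was seen.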
